A study of Mus musculus with 14 samples.

Results

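The genes described are 36 genes of DNA replication and mitosis in mouse regulatory T cells, 13 that act in replication and 23 that act in mitosis. They were taken as a fixed list of gene symbols, with earlier results of these data known, and were 36 of 30284 genes with a row, of which 15775 had enough reads to be tested. All 36 passed that filter. Messenger RNA was sequenced from CD4 T cells of the spleen that carried the regulatory T cell factor Foxp3 and a YFP signal, sorted from C57/B6 mice. The KO group was Tln1fl/fl Foxp3cre/wt, with both alleles of the talin-1 gene floxed, and the WT group was Tln1wt/wt Foxp3cre/wt. Talin-1 links integrins to the cytoskeleton and switches them to their active form. Every mouse of both groups carried 1 allele of Foxp3-driven Cre recombinase beside a wild-type allele. The gene is X-linked, and X inactivation in a heterozygous female leaves Cre-carrying and Cre-free regulatory T cells, among which the sort took YFP+ cells. There were 3 KO units and 4 WT units, each made of 2 sequenced samples that share a first number in their titles, and a library came from 1 or 2 animals. The comparison asks how loss of talin, and so of integrin activation, bears on expression in these cells.

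A cell that enters the cycle first induces cyclin E, loads the MCM helicase on its replication origins and makes deoxynucleotides, and PCNA then holds the polymerases on the template. Genes of this first wave are controlled mainly by E2F factors. Cyclins A and B with the kinase Cdk1, the Aurora and Polo kinases, the spindle checkpoint and the kinesins come later, in G2 and mitosis. Their genes are held silent in resting cells by the DREAM complex and are switched on in G2 by B-Myb and Foxm1, acting through a promoter sequence called the cell cycle genes homology region (CHR). Regulatory T cells of the spleen are known to hold a cycling fraction, mostly among activated cells. In bulk RNA, a larger number of cycling cells and more RNA per cycling cell cannot be told apart.

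The promoters of the members were searched for both kinds of sequence. RefSeq promoter windows of build GRCm38.p6, running from 250 bases before to 50 bases after the transcription start, were matched for 29 of the 36 members, 11 of replication and 18 of mitosis. Ccne2, Mcm4, Ccna2, Aurkb, Tpx2, Kif20a and Stmn1 were not matched. The windows below belong to the 3 replication and the 3 mitosis members with a window that had the smallest adjusted p in the comparison of KO with WT. Each is written 5′ to 3′ on the strand of its gene, which is the minus strand in all 6. Capitals mark matches to an E2F site (TTTCCCGC or TTTGGCGC or TTTCGCGC or TTTGCCGC) or to a CHR element (TTTGAA or TTTAAA), searched on both strands, so that a match on the other strand reads as its reverse complement. A match is a run of letters and not a bound site.
Mcm3, a helicase subunit, at chr1:20820263-20820562: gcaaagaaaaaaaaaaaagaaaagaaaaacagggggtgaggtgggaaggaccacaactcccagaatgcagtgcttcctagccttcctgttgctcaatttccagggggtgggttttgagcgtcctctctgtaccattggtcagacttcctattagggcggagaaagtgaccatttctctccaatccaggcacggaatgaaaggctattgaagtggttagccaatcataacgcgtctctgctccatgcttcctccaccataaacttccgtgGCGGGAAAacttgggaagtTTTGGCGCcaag
Pcna, the sliding clamp, at chr2:132253131-132253430: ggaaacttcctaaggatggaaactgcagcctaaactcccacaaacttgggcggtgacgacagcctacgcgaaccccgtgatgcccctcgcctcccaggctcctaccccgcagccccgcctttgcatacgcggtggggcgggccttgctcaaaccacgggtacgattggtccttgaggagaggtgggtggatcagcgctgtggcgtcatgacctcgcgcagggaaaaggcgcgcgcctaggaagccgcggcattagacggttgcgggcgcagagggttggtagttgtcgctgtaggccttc
Mcm7, a helicase subunit, at chr5:138171834-138172133: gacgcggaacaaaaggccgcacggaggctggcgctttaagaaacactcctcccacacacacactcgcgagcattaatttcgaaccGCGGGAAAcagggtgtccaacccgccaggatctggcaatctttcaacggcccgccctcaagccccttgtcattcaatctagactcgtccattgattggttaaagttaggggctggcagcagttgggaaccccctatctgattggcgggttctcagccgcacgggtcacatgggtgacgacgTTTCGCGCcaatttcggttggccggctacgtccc
Cdc20, an activator of the anaphase-promoting complex, at chr4:118437294-118437593: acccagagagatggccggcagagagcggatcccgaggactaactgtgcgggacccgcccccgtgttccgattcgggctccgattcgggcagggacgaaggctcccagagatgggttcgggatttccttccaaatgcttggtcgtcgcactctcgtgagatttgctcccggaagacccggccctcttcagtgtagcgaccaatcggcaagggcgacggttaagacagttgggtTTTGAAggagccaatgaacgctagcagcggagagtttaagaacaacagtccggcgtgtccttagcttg
Aurka, a spindle pole kinase, at chr2:172370521-172370820: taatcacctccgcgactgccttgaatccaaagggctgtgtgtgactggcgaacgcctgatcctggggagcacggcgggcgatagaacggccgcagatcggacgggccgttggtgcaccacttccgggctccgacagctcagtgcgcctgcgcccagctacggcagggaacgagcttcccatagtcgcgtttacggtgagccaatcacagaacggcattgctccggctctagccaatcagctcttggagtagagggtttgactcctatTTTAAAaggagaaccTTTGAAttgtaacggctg
Cdk1, the mitotic cyclin-dependent kinase, at chr10:69352863-69353162: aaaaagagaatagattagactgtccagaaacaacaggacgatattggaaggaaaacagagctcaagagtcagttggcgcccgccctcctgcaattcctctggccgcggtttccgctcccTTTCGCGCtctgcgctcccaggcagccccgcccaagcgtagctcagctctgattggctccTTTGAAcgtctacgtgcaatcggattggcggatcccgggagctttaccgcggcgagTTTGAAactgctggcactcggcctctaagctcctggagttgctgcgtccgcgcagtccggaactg

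Mcm3 and Mcm7 each held 2 E2F matches and no CHR match. Cdc20 held 1 CHR match and no E2F match, Aurka held 2 CHR matches and no E2F match, and Cdk1 held 2 CHR matches and 1 E2F match. Pcna held neither. Mcm7 has a second, downstream start in the RefSeq table, and its window held neither motif. Members were counted per gene, with a match in any window, and the background per window. Over all members with a window, an E2F match was found in 4 of 11 replication members (Mcm3, Mcm5, Mcm6 and Mcm7) and in 1 of 18 mitosis members (Cdk1), against 2.26% of 32851 promoter windows. A CHR match was found in 15 of 18 mitosis members and in 5 of 11 replication members, against 27.6% of all windows. The form TTTGAA alone was in 12 of 18 mitosis members, in 1 of 11 replication members (Mcm2) and in 17.9% of all windows. The NF-Y box CCAAT was in 15 of 18 mitosis members, in 8 of 11 replication members and in 37.4% of all windows. A match to it can share a base with an E2F match, as in Mcm7.

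**Figure D1:**
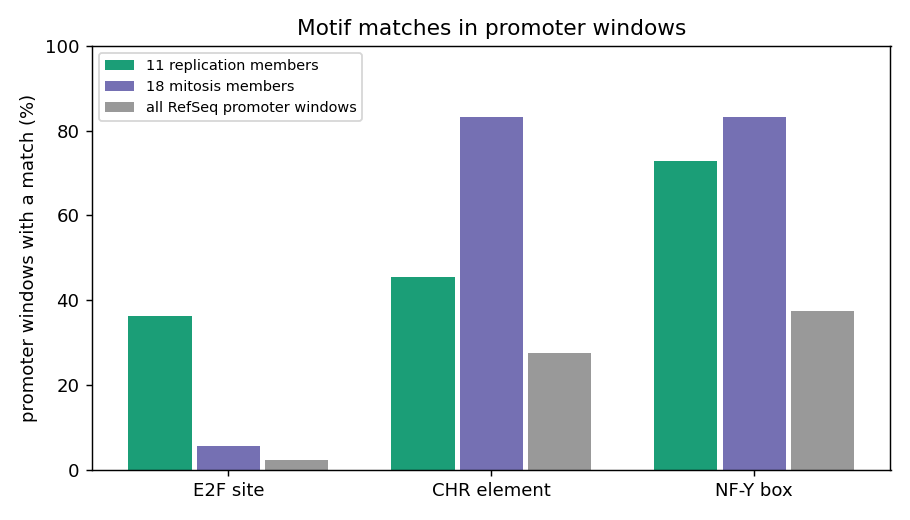
Share (y axis, percent) with at least 1 match to an E2F site, a CHR element or an NF-Y box on either strand. The 11 replication members and 18 mitosis members are counted per gene, with a match in any window. All 32851 RefSeq promoter windows of the same length are counted per window. The E2F bar is highest for the replication members, with 4 of 11, and the CHR bar is highest for the mitosis members, with 15 of 18.

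The units differed in depth, with 38.8 M to 56.1 M estimated reads in KO units and 12.9 M to 39.2 M in WT units (M, megareads). The 2 samples of a unit differed in the level of a typical member by a factor of 1.02 to 1.13. Tln1 had 788, 901 and 1014 CPM (counts scaled to the library size) in KO units 1 to 3, against 634, 543, 847 and 649 in WT units 1 to 4, so its total signal was not lower in the units labelled as KO and does not check their labels. The total does not single out the floxed part of the gene. The 8 markers of the regulatory T cell list were Foxp3, Il2ra, Ctla4, Ikzf2, Cd3d, Cd3e, Cd3g and Cd4. The Cd3 genes and Cd4 are also expressed in other T cells. All 8 were expressed in all 7 units, with a sum of 2522 to 3499 CPM in KO units and 4126 to 4880.1 CPM in WT units. Over all genes, 7.07% were higher and 6.52% lower in KO at a false discovery rate (FDR) of 0.05 in edgeR's quasi-likelihood test. Of the 8 regulatory T cell markers, 3 were called lower and 0 higher at that threshold.

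No member passed that threshold, while all 36 had a higher mean in KO. In edgeR 0 of 36 members were called in either direction, against the 7.07% of all genes called higher. At an unadjusted p under 0.05 the count was 16 of 36, 5 of replication and 11 of mitosis, against 17.6% of all genes on the higher side. The DESeq2 Wald test called 17 of 36 members higher, 4 of replication and 13 of mitosis, against 11.7% of all genes, and limma-voom called 0. The median log2 fold change of KO over WT was 1.03 over the replication members, 1.79 over the mitosis members and 0.06 over all genes tested. All members had a positive log2 fold change, as had 54.2% of all genes tested. The units of the groups did not overlap, with every KO unit above every WT unit, for 10 of 36 members, against 16.7% of all genes. These 10 were Mcm2, Mcm3, Mcm5, Mcm7 and Pcna of replication and Aurka, Bub1b, Cdc20, Cdk1 and Tacc3 of mitosis.

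KO unit 3 was the highest of all 7 units for 36 of 36 members, as it was for 25.9% of all genes tested. Its level over the mean of KO units 1 and 2 had a median of 3.30 over the replication members, 4.23 over the mitosis members and 0.979 over all genes. Without KO unit 3 the median log2 fold change was 0.31 over the replication members and 0.65 over the mitosis members, 0 members passed FDR 0.05 in edgeR, against 3.43% of all genes called higher. At an unadjusted p under 0.05 there were 9 of 36 members on the higher side without that unit, against 12.0% of all genes. The sizes below rest in large part on 1 of the 3 KO units.

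**Figure D2:**
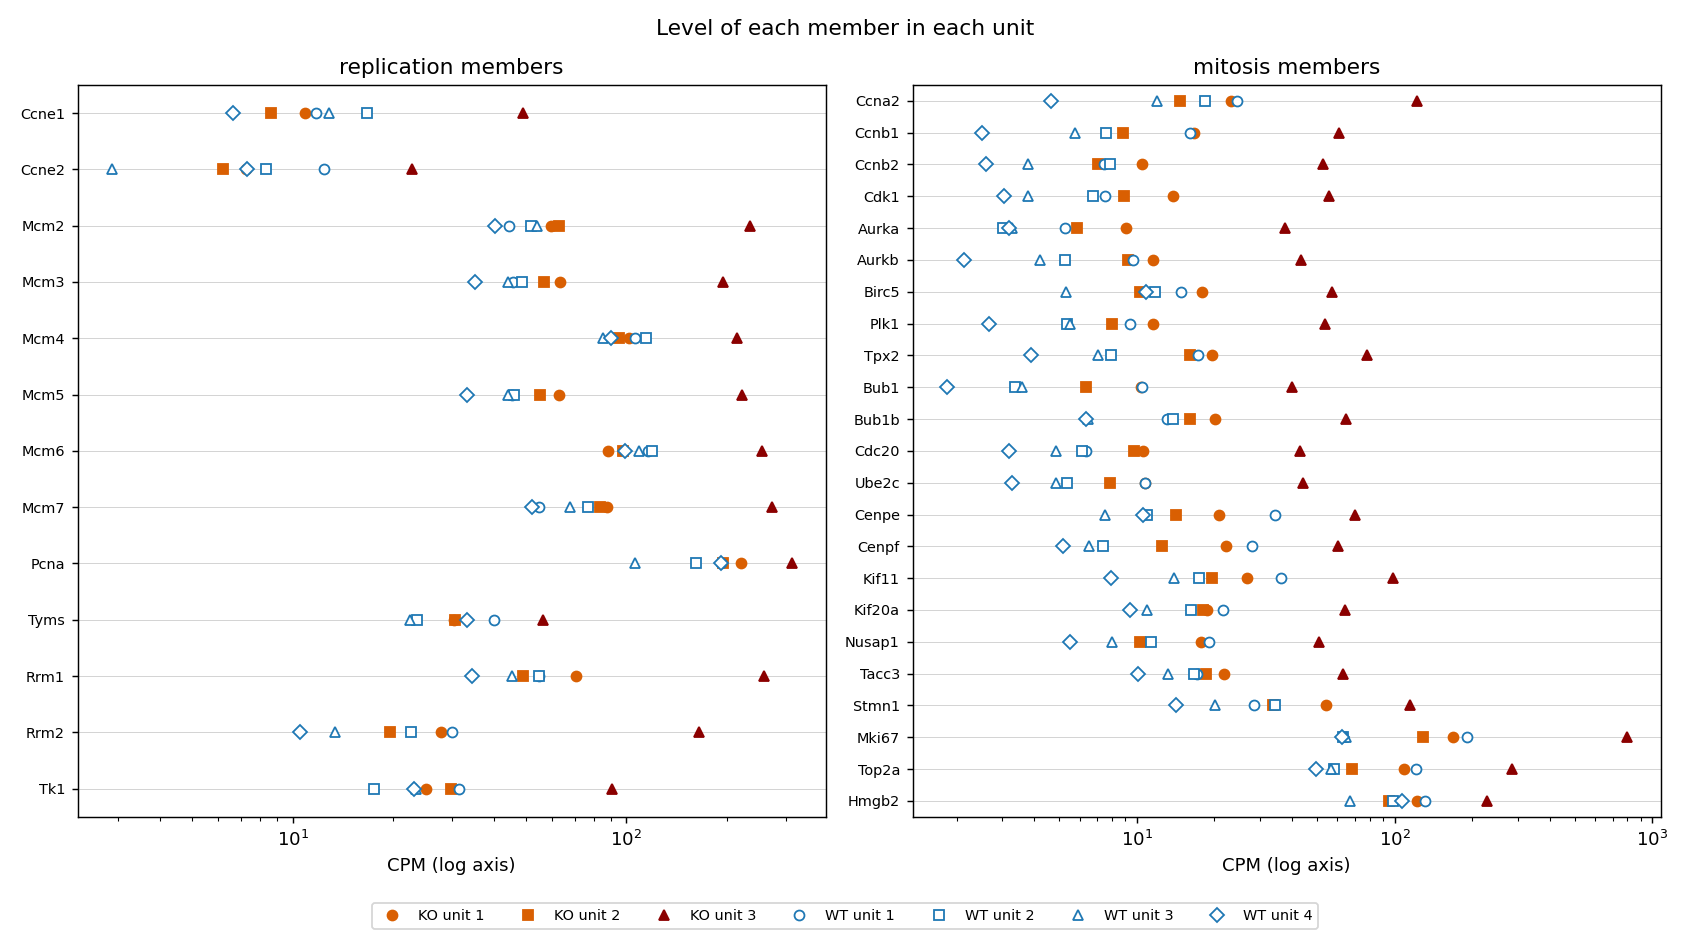
Level of each member in CPM (x axis, log scale) in each unit, with the 13 replication members on the left and the 23 mitosis members on the right. Filled symbols are KO units and open symbols are WT units. The dark red triangle of KO unit 3 is the rightmost symbol of every member, and KO units 1 and 2 lie near or among the WT units.

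The E-type cyclins, which drive the kinase Cdk2 at the start of replication, were high in KO unit 3 only. Ccne1 had 10.9, 8.62 and 49.0 CPM in KO units 1 to 3, against 11.8, 16.8, 12.8 and 6.63 CPM in WT units 1 to 4. Ccne2 had 7.24, 6.18 and 22.8 CPM in KO units, against 12.4, 8.30, 2.87 and 7.31 CPM in WT units. KO units 1 and 2 lay within the WT range for both genes. The log2 fold change was 0.92 ± 0.67 (SE) for Ccne1, with an adjusted p of 0.391 in edgeR, and it was -0.30 ± 0.34 without KO unit 3. For Ccne2 it was 0.65 ± 0.60 (adjusted p = 0.495), and -0.19 ± 0.48 without that unit.

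The 6 subunits of the MCM helicase, which unwinds the template ahead of the replication fork, fell into 2 sets by their units. Mcm2, Mcm3, Mcm5 and Mcm7 were above every WT unit in every KO unit, and Mcm4 and Mcm6 were not. Mcm3 had 63.2, 56.8 and 195 CPM in KO units 1 to 3, against 45.7, 48.7, 44.3 and 35.1 CPM in WT units 1 to 4. Its log2 fold change was 1.27 ± 0.46 (edgeR adjusted p = 0.117), and 0.47 ± 0.16 without KO unit 3 (adjusted p = 0.112). Mcm5 had 62.6, 55.2 and 223 CPM in KO units, against 45.5, 46.0, 44.3 and 33.3 CPM in WT units, and a log2 fold change of 1.42 ± 0.53 (adjusted p = 0.128).

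Mcm2, whose subunit also binds histones, had 59.5, 62.9 and 235 CPM in KO units, against 44.4, 51.8, 53.8 and 40.4 CPM in WT units. Mcm7 had 87.6, 83.5 and 273 CPM in KO units, against 54.8, 77.0, 67.6 and 52.1 CPM in WT units. The log2 fold changes were 1.32 ± 0.53 for Mcm2 and 1.23 ± 0.46 for Mcm7, with edgeR adjusted p of 0.150 and 0.125. Mcm4 had 102, 95.1 and 215 CPM in KO units, against 106, 115, 85.3 and 90.1 CPM in WT units. Mcm6 had 88.2, 97.5 and 255 CPM in KO units, against 116, 119, 109 and 99.0 CPM in WT units. KO units 1 and 2 were both below all 4 WT units for Mcm6 and within the WT range for Mcm4, and the log2 fold changes without KO unit 3 were -0.26 ± 0.13 for Mcm6 and -0.01 ± 0.15 for Mcm4, against 0.41 ± 0.37 and 0.47 ± 0.29 with it.

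Pcna, the clamp that tethers polymerases to the template, was the member with the smallest gap between KO unit 3 and the other KO units, a factor of 1.51. It had 220.2, 195 and 313 CPM in KO units 1 to 3, against 192, 162, 106 and 192 CPM in WT units 1 to 4. Its groups did not overlap, but KO unit 2 stood just above WT units 1 and 4. The log2 fold change was 0.57 ± 0.23 (edgeR adjusted p = 0.120). Of the 31-base words in Pcna transcripts, 23.3% also occur in another gene, so reads of the copies can be split. The pseudogene Pcna-ps2 had more of these matches than any other gene.

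Nucleotide supply covers thymidylate synthase (Tyms), the 2 kinds of subunit of ribonucleotide reductase (Rrm1 and Rrm2), which makes deoxynucleotides, and thymidine kinase (Tk1), which salvages thymidine. Rrm2, the subunit whose level is limiting outside S phase, had 27.8, 19.6 and 165 CPM in KO units, against 30.1, 22.6, 13.4 and 10.5 CPM in WT units. Its level in KO unit 3 was 6.97 times the mean of the other KO units, the largest such ratio among the 36 members. Rrm2 also had the largest log2 fold change of the replication members, 1.89 ± 0.88 (edgeR adjusted p = 0.205), which was 0.31 ± 0.42 without that unit.

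Rrm1 had 70.8, 48.9 and 258 CPM in KO units, against 54.7, 54.7, 45.6 and 34.5 CPM in WT units, and a log2 fold change of 1.41 ± 0.61 (adjusted p = 0.177). Tk1 had 25.1, 29.9 and 90.7 CPM in KO units, against 31.5, 17.6, 23.4 and 23.2 CPM in WT units, and a log2 fold change of 1.03 ± 0.48 (adjusted p = 0.199). Only 57.2% of the Tk1 reads of KO units and 29.5% of those of WT units were assigned to protein-coding transcripts. On those reads alone, an alternative chosen after seeing the data, its log2 fold change was 1.91 (adjusted p = 0.103). Tyms had 30.5, 30.7 and 56.1 CPM in KO units, against 40.2, 23.5, 22.6 and 33.4 CPM in WT units. Its log2 fold change was the smallest of all members, 0.39 ± 0.28 (adjusted p = 0.369), and on protein-coding transcripts it was 0.01.

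The mitosis members rested on fewer reads, with a fewest of 24 reads in a unit (Bub1 in WT unit 4), against 87 for the replication members (Ccne1). Cyclins A and B with Cdk1 form the kinase that drives entry into mitosis. Cdk1 had 13.8, 8.93 and 55.5 CPM in KO units 1 to 3, against 7.55, 6.79, 3.77 and 3.05 CPM in WT units 1 to 4. Every KO unit was above every WT unit. Its log2 fold change of 2.30 ± 0.70 was the largest of all members (edgeR adjusted p = 0.0748), and it remained the largest without KO unit 3, at 1.11 ± 0.39 (adjusted p = 0.124).

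Its partner Ccnb1 had 16.7, 8.83 and 60.7 CPM in KO units, against 16.1, 7.62, 5.74 and 2.51 CPM in WT units. WT unit 1 was close to KO unit 1, and the other 3 WT units were below every KO unit. The log2 fold change was 1.85 ± 0.87 (adjusted p = 0.203). Of the Ccnb1 words, 27.2% also occur in another gene, with more matches in the pseudogene Ccnb1-ps than in any other. Ccnb2 had 10.5, 7.07 and 52.7 CPM in KO units, against 7.47, 7.86, 3.77 and 2.59 CPM in WT units (log2 fold change 2.11 ± 0.81, adjusted p = 0.132). Ccna2, which acts in S phase as well as in G2, had 23.3, 14.7 and 122 CPM in KO units, against 24.5, 18.5, 11.9 and 4.65 CPM in WT units. Its KO unit 3 stood 6.42 times above the mean of the other KO units, the largest ratio among the mitosis members.

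Among the mitotic kinases, Aurka, which builds spindle poles, came close to the threshold. It had 9.10, 5.87 and 37.7 CPM in KO units, against 5.27, 3.03, 3.27 and 3.20 CPM in WT units, with a log2 fold change of 2.26 ± 0.63 and an adjusted p of 0.0554 in edgeR. Tpx2, the activator of Aurka on the spindle, had 19.5, 16.1 and 78.3 CPM in KO units, against 17.3, 7.96, 7.09 and 3.89 CPM in WT units (log2 fold change 2.07 ± 0.76, adjusted p = 0.123). Plk1, the Polo kinase, had 11.5, 8.04 and 53.8 CPM in KO units, against 9.44, 5.37, 5.52 and 2.67 CPM in WT units (log2 fold change 2.09 ± 0.76, adjusted p = 0.119). For Tpx2 and Plk1 only WT unit 1 reached the level of a KO unit.

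Aurkb and Birc5 encode the kinase and the survivin subunit of the chromosomal passenger complex, which corrects attachments at the centromere. Aurkb had 11.5, 9.26 and 43.5 CPM in KO units, against 9.67, 5.28, 4.20 and 2.13 CPM in WT units (log2 fold change 2.02 ± 0.70, edgeR adjusted p = 0.104). Birc5 had 17.9, 10.3 and 57.0 CPM in KO units, against 14.9, 11.8, 5.32 and 10.8 CPM in WT units (log2 fold change 1.42 ± 0.64, adjusted p = 0.180). KO unit 2 lay within the WT range for both.

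The spindle checkpoint holds the anaphase-promoting complex until every chromosome is attached, and Cdc20 is the activator that it sequesters. Cdc20 had the smallest adjusted p of all members, 0.0521 in edgeR. It had 10.6, 9.75 and 43.0 CPM in KO units 1 to 3, against 6.37, 6.15, 4.87 and 3.20 CPM in WT units 1 to 4, with every KO unit above every WT unit. The log2 fold change was 2.03 ± 0.56, and 0.98 ± 0.32 without KO unit 3 (adjusted p = 0.101). Of its words, 25.2% also occur in another gene, with more matches in Gm7856 than in any other.

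Bub1b, the checkpoint protein BubR1, had 20.2, 16.1 and 64.6 CPM in KO units, against 13.1, 13.8, 6.49 and 6.32 CPM in WT units (log2 fold change 1.76 ± 0.57, edgeR adjusted p = 0.0875). Its groups did not overlap either. Bub1, a checkpoint kinase, had 10.4, 6.38 and 40.1 CPM in KO units, against 10.5, 3.37, 3.60 and 1.83 CPM in WT units (log2 fold change 1.99 ± 0.84, adjusted p = 0.160). Ube2c, the ubiquitin-conjugating enzyme of the anaphase-promoting complex, had 10.8, 7.86 and 44.1 CPM in KO units, against 10.8, 5.37, 4.87 and 3.28 CPM in WT units (log2 fold change 1.79 ± 0.70, adjusted p = 0.132). For Bub1 and Ube2c WT unit 1 was level with KO unit 1.

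The kinesins and kinetochore genes were the set in which WT unit 1 stood highest. Cenpe, a kinesin that moves chromosomes to the metaphase plate, had 20.9, 14.2 and 70.4 CPM in KO units, against 34.3, 11.0, 7.54 and 10.6 CPM in WT units. Cenpf, a kinetochore protein, had 22.1, 12.5 and 60.2 CPM in KO units, against 28.0, 7.38, 6.54 and 5.18 CPM in WT units. WT unit 1 was above KO units 1 and 2 for both, and the log2 fold changes were 1.16 ± 0.79 for Cenpe and 1.43 ± 0.83 for Cenpf (edgeR adjusted p = 0.367 and 0.291).

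Kif11, the motor that pushes spindle poles apart, had 26.8, 19.6 and 98.3 CPM in KO units, against 36.1, 17.4, 14.0 and 7.92 CPM in WT units (log2 fold change 1.36 ± 0.77, adjusted p = 0.281). Kif20a, a kinesin of cytokinesis, had 18.7, 18.1 and 64.0 CPM in KO units, against 21.6, 16.2, 11.0 and 9.37 CPM in WT units (log2 fold change 1.21 ± 0.54, adjusted p = 0.176). WT unit 1 was again above KO units 1 and 2 for both. Part of Kif20a overlaps another gene in sequence, with 22.3% of its words shared, and with more matches in Cdc23 than in any other gene.

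Of the spindle and microtubule genes, Tacc3, which strengthens kinetochore fibres, had 21.7, 18.6 and 63.3 CPM in KO units, against 17.1, 16.6, 13.2 and 10.1 CPM in WT units. Its groups did not overlap, and the log2 fold change was 1.28 ± 0.44 (edgeR adjusted p = 0.0975). Stmn1, which destabilizes microtubules in cycling and non-cycling cells, had 54.1, 33.6 and 114 CPM in KO units, against 28.5, 34.2, 20.1 and 14.2 CPM in WT units (log2 fold change 1.47 ± 0.49, adjusted p = 0.0959). KO unit 2 was just below WT unit 2. Nusap1, a microtubule bundler, had 17.7, 10.3 and 50.7 CPM in KO units, against 19.0, 11.4, 8.02 and 5.49 CPM in WT units (log2 fold change 1.26 ± 0.65, adjusted p = 0.231).

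Mki67, which coats mitotic chromosomes and is the usual marker of cycling cells, had 168, 129 and 794 CPM in KO units, against 190.3, 63.0, 64.6 and 62.7 CPM in WT units. WT unit 1 was above KO units 1 and 2, and the other 3 WT units lay close together, below every KO unit. The log2 fold change was 1.94 ± 0.83 (edgeR adjusted p = 0.178), and 0.65 ± 0.59 without KO unit 3. Top2a, the topoisomerase that untangles sister chromatids, had 109, 68.1 and 284 CPM in KO units, against 120.5, 58.3, 56.8 and 49.6 CPM in WT units (log2 fold change 1.11 ± 0.58, adjusted p = 0.250). Hmgb2, a chromatin protein that also acts outside mitosis, had 122, 94.9 and 228 CPM in KO units, against 131, 98.7, 67.3 and 107 CPM in WT units. Its log2 fold change, 0.56 ± 0.34, was the smallest of the mitosis members (adjusted p = 0.297).

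Per transcript length, in TPM, the mitosis members were less abundant than the replication members. The median of the members' mean TPM was 17.4 in KO units and 4.35 in WT units for mitosis, and 32.9 in KO units and 12.9 in WT units for replication. Pcna was the most abundant member, with 242 ± 29.1 TPM in KO units and 164 ± 47.6 TPM in WT units (SD, n = 3 and 4). Cenpe was the least abundant, with 3.69 ± 3.05 TPM in KO units and 1.78 ± 1.40 TPM in WT units.

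Replication and mitosis were then set side by side in each unit, as the median over members of the log2 ratio of a unit's CPM to the mean CPM of the WT units. The replication level was 0.32, 0.05 and 2.03 in KO units 1 to 3, against 0.11, 0.12, -0.03 and -0.24 in WT units 1 to 4. The mitosis level was 0.91, 0.38 and 2.86 in KO units, against 0.72, -0.03, -0.42 and -0.80 in WT units. As folds, KO unit 3 stood at 4.08 for replication and 7.26 for mitosis. KO unit 2 was below WT units 1 and 2 for replication, and WT unit 1 was between KO units 1 and 2 for mitosis, so the groups overlapped for both classes.

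The mitosis level exceeded the replication level by 0.59, 0.34 and 0.83 in KO units 1 to 3 and by 0.61 in WT unit 1, while it was below it by the values -0.16, -0.39 and -0.56 in WT units 2 to 4. The gap between the classes was thus of like size in WT unit 1 and KO unit 1. The difference in median log2 fold change, mitosis minus replication, was 0.76, and 0.34 without KO unit 3. No test is given for these medians, since the members were chosen with results known. All genes tested had medians between -0.04 and 0.06 in every unit.

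**Figure D3:**
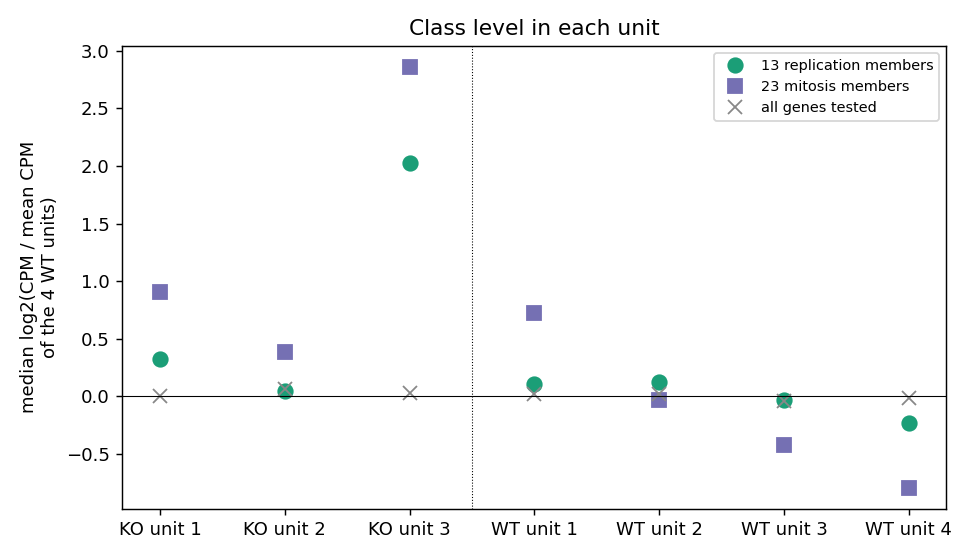
Median over the 13 replication members, the 23 mitosis members and all genes tested of log2(CPM / mean CPM of the WT units) (y axis) in each unit, with KO units left and WT units right of the dotted line. KO unit 3 stands at 2.03 for replication and 2.86 for mitosis, and WT unit 1 has a raised mitosis level of 0.72 beside a replication level of 0.11.

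The WT units also varied. WT unit 1 was the highest WT unit for 20 of 23 mitosis members but for 5 of 13 replication members, and for 31.3% of all genes tested. Its level over the mean of the other WT units had a median of 2.10 over the mitosis members, between 1.25 (Stmn1) and 4.40 (Cenpf), and of 1.11 over the replication members, between 0.836 (Mcm7) and 2.02 (Ccne2). WT unit 4 was the lowest of all 7 units for 19 of 23 mitosis and 7 of 13 replication members, and for 13.2% of all genes. The coefficient of variation among WT units had a median of 48.7% over the mitosis members, 20.3% over the replication members and 20.0% over all genes. KO unit 1 was above KO unit 2 for all 23 mitosis members and for 9 of 13 replication members, and for 7933 of 15775 genes tested.

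By role, the level of KO unit 3 relative to WT was 8.92-fold for cyclins A and B with Cdk1, 8.64-fold for the mitotic kinases and passenger complex, and 7.78-fold for the checkpoint and anaphase-promoting complex. It was 4.76-fold for kinesins and kinetochore, 4.62-fold for spindle and microtubules and 3.98-fold for chromosome structure. Among replication roles it was 4.55-fold for nucleotide supply, 4.41-fold for the MCM helicase, 3.47-fold for cyclin E and 1.92-fold for Pcna, so chromosome structure stood below nucleotide supply and the MCM helicase. KO units 1 and 2 stood at 2.15-fold and 1.59-fold for the mitotic kinases, against 1.64-fold in WT unit 1 and 0.935-fold, 0.789-fold and 0.464-fold in WT units 2 to 4. For the MCM helicase they stood at 1.32-fold and 1.31-fold, against 0.838-fold to 1.10-fold in the WT units. For the spindle and microtubule genes they stood at 1.61-fold and 1.30-fold, against 0.585-fold to 1.20-fold in the WT units. Among roles with several members, these 2 were the ones in which KO units 1 and 2 both lay above all WT units. This holds for the median of the role. Singly, Mcm2, Mcm3, Mcm5, Mcm7 and Tacc3 did so, and Mcm4, Mcm6, Nusap1 and Stmn1 did not.

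**Figure D4:**
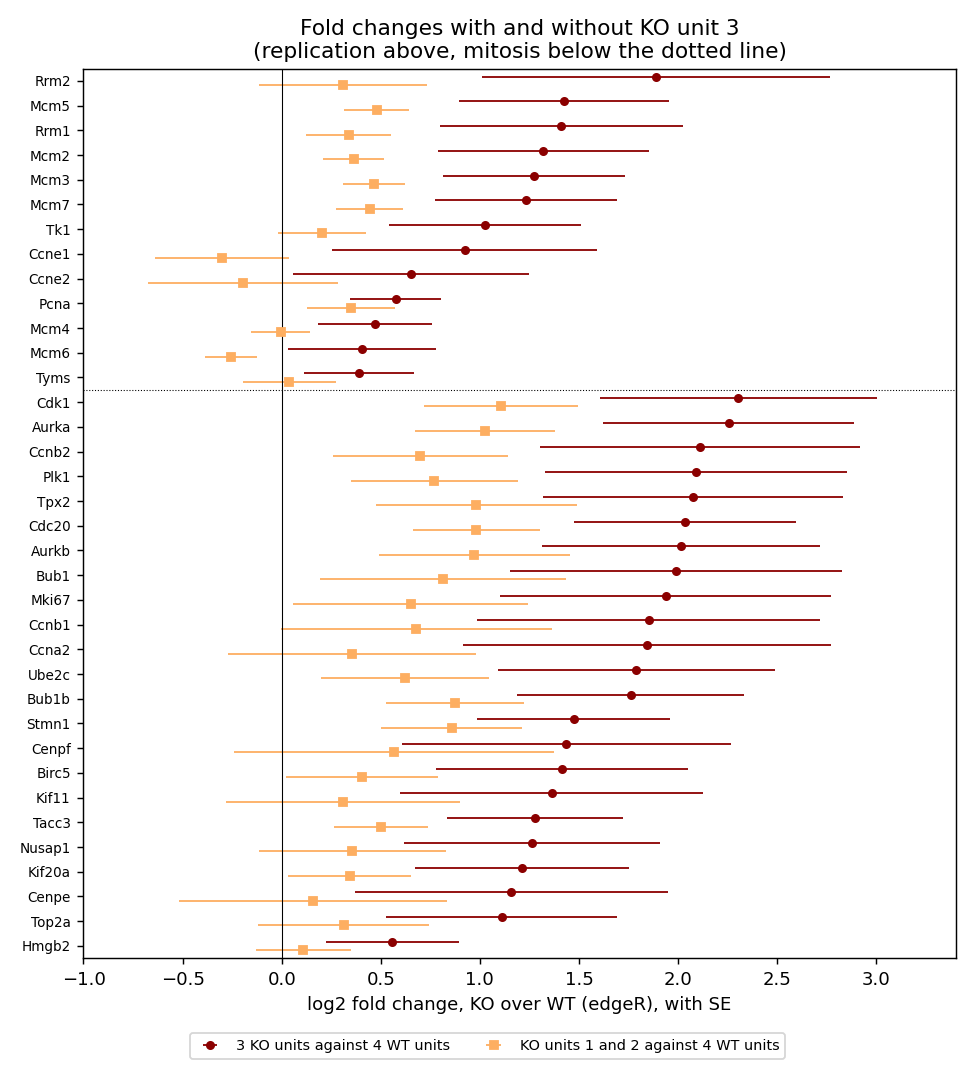
Log2 fold change of KO over WT (x axis, edgeR, bars are SE) for each member, with all 3 KO units (dark red) and with KO units 1 and 2 only (orange), replication members above and mitosis members below the dotted line. Every dark red point is above 0, and without KO unit 3 the points of Ccne1, Ccne2, Mcm4 and Mcm6 lie below 0.

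Markers of several other cell types were also high in KO unit 3. The sum of 12 erythroid markers was 444, 193 and 4264 CPM in KO units 1 to 3, against 82.3, 112, 11.7 and 19.4 CPM in WT units 1 to 4. All 12 were highest in KO unit 3, and the defining marker Klf1 was at 0 in WT unit 4. Of these 12, 0 were called higher and 0 lower in KO at FDR 0.05 in edgeR, against 7.07% and 6.52% of all genes. The sum of 10 granulocyte precursor markers was 313, 209 and 1556 CPM in KO units, against 11.6, 1.91, 3.75 and 3.20 CPM in WT units. Of these 10, 9 were called higher in KO, against 7.07% of all genes. Among them 7 of the 10 were highest in KO unit 3, and Cebpe was at 0 in all 4 WT units. Erythroid and granulocyte precursors are known to divide rapidly. Their part in the members' values was not tested.

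The germinal centre B and plasma cell list summed to between 791 and 2013 CPM in KO units and between 56.3 and 371 CPM in WT units, with 5 of 8 markers highest in KO unit 3. The B cell list summed to 402, 341 and 179 CPM in KO units, against 36.8 to 103 CPM in WT units, with none of its 10 markers highest in KO unit 3. The monocyte and macrophage list summed to 675, 249 and 832 CPM in KO units, against 228, 8.84, 10.7 and 40.6 CPM in WT units, and WT unit 1 was the highest WT unit for all 10 of its markers. Dendritic cell markers summed to 72.0, 51.0 and 44.0 CPM in KO units, against 4.35 to 16.4 CPM in WT units. CD8 T and NK cell markers summed to 111, 79.4 and 56.7 CPM in KO units, against 35.7 to 44.9 CPM in WT units. Called higher in KO were 3 of 8 germinal centre B and plasma cell, 6 of 10 B cell and 2 of 10 monocyte and macrophage markers. So were 4 of 8 dendritic cell and 4 of 9 CD8 T and NK cell markers, against 7.07% of all genes. KO unit 3 was the lowest KO unit for the B cell, dendritic cell and CD8 T and NK cell sums, unlike the members. The part of these cells was not tested either.

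**Figure D5:**
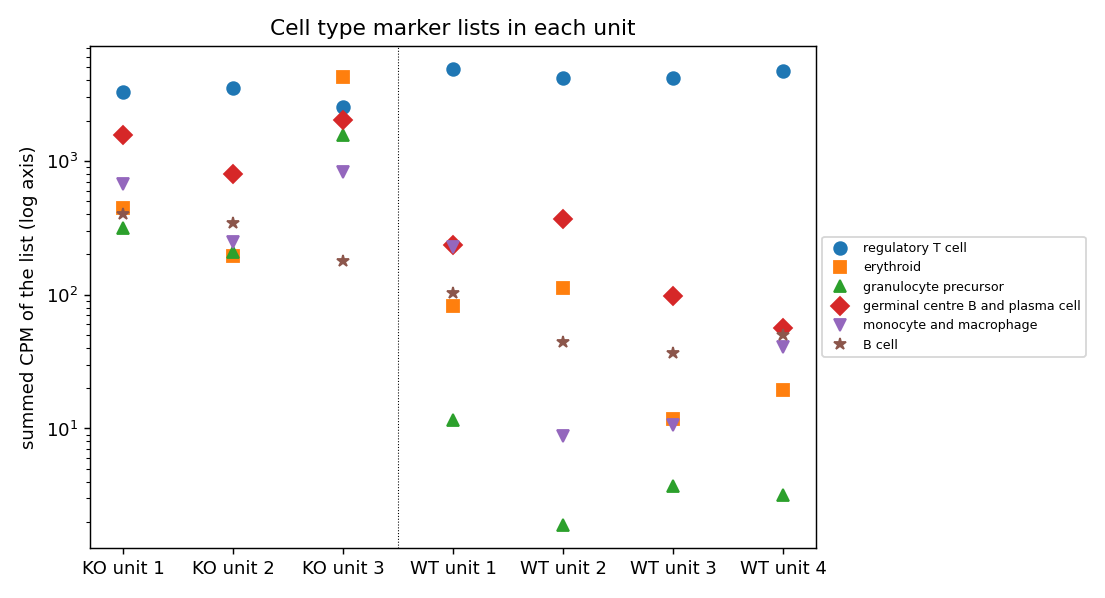
Summed CPM (y axis, log scale) of the markers of 6 cell types in each unit, with KO units left and WT units right of the dotted line. The erythroid sum reaches 4264 CPM and the granulocyte precursor sum 1556 CPM in KO unit 3, while the regulatory T cell sum is lowest there at 2522 CPM.

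The wider pathway was read from genes outside the 36. Of 51 other replication genes, 4 rose and 1 fell in KO (edgeR, FDR 0.05), against 7.07% and 6.52% of all genes. At an unadjusted p under 0.05, 23 were higher and 2 lower, against 17.6% and 15.0% of all genes. The median log2 fold change was 0.63, and KO unit 3 was highest for 44 of the 51. With KO unit 3 left out, 1 rose (Cdt1) and 1 fell (Orc4), against 3.43% of all genes higher and 437 of 15753 lower. At an unadjusted p under 0.05, 11 were then higher and 1 lower, against 12.0% of all genes higher and 1802 of 15753 lower. The median was then 0.17. Cdt1, which loads the MCM helicase on origins, rose with 33.2, 48.6 and 88.2 CPM in KO units, against 21.8, 21.6, 22.5 and 21.0 CPM in WT units. Its log2 fold change was 1.38 ± 0.28 (adjusted p = 0.0190), and 0.91 without KO unit 3 (adjusted p = 0.0149). Timeless, a fork protection protein (log2 fold change 0.74, adjusted p = 0.0306), and Pola2, a subunit of polymerase alpha (0.76, adjusted p = 0.0377), also rose. Without KO unit 3 their adjusted p were 0.0944 and 0.122. The fourth was Pold1, the catalytic subunit of polymerase delta, named after its value was seen (log2 fold change 1.08, adjusted p = 0.0469, and 0.61 with an adjusted p of 0.0720 without KO unit 3). Orc4, a subunit of the origin recognition complex, fell with 73.1, 70.3 and 48.7 CPM in KO units, against 118, 116, 88.5 and 114 CPM in WT units (log2 fold change -0.77, adjusted p = 0.0202).

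Of 66 other mitosis genes, 6 rose and 1 fell (edgeR, FDR 0.05), against the same 7.07% and 6.52% of all genes. At an unadjusted p under 0.05, 39 were higher and 2 lower, against 17.6% and 15.0% of all genes. The median log2 fold change was 1.35, and KO unit 3 was highest for 61 of the 66. With KO unit 3 left out, 1 rose (Cdc25b) and 0 fell, against 3.43% of all genes higher and 437 of 15753 lower. At an unadjusted p under 0.05, 9 were higher and 2 lower, against 12.0% of all genes higher and 1802 of 15753 lower. The median was 0.56. Cdc25b, the phosphatase that activates Cdk1, had 127, 132 and 153 CPM in KO units, against 78.6, 82.7, 91.2 and 90.5 CPM in WT units. Its KO units lay close together, and its log2 fold change was 0.68 ± 0.12 (edgeR adjusted p = 0.00924), and 0.59 without KO unit 3 (adjusted p = 0.0207). Gtse1, a microtubule-binding protein of G2, rose with a log2 fold change of 2.14 (adjusted p = 0.0390), and Cks1b, a subunit of Cdk complexes, with 1.71 (adjusted p = 0.0450). Without KO unit 3 their adjusted p were 0.118 and 0.171. Smc4, a condensin subunit, fell with 1436, 1209.9 and 883 CPM in KO units, against 2210.0, 2138, 1638 and 2171 CPM in WT units (log2 fold change -0.79, adjusted p = 0.0329). Its adjusted p without KO unit 3 was 0.0920.

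Of 20 regulators of these genes, 1 rose and 0 fell (edgeR, FDR 0.05), against 7.07% and 6.52% of all genes. At an unadjusted p under 0.05, 6 were higher and 1 was lower, against 17.6% and 15.0% of all genes, and the median log2 fold change was 0.19. Foxm1, the G2 activator of mitosis genes, rose with 18.1, 17.8 and 55.0 CPM in KO units, against 13.2, 6.94, 8.54 and 9.30 CPM in WT units (log2 fold change 1.68 ± 0.44, adjusted p = 0.0428). Its adjusted p without KO unit 3 was 0.0694. E2f8, a repressing E2F factor, had 14.7, 10.4 and 87.6 CPM in KO units, against 6.21, 4.40, 3.72 and 2.59 CPM in WT units (adjusted p = 0.0617, and 0.0281 without KO unit 3). Mybl2, which encodes B-Myb, had a log2 fold change of 2.14 (adjusted p = 0.0710). Rbl2, the p130 subunit of the DREAM complex, had 165, 165 and 157 CPM in KO units, against 193, 238, 205 and 199 CPM in WT units (log2 fold change -0.36, adjusted p = 0.0714).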

How the data were processed

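Sorted splenic regulatory T cells were measured in 14 samples, 6 KO and 8 WT. The deposited tables hold kallisto's expected counts and TPM per transcript, per the file headers, and their transcript lengths (other columns). Build GRCm38 comes from the submitters' processing notes, and the sources used here give no kallisto version or annotation. The library kit was non-stranded, per the labels' protocols, so reads of overlapping and antisense genes cannot be told apart.

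Expected counts of 88198 transcripts were summed per gene (GRCm38 annotation). The 2079 transcripts without a gene held 1.17% to 1.28% of reads and were left out. The 2 samples with the same first title number were summed and rounded to 1 unit: within a unit the chi-square per degree of freedom was 1.44 to 1.87, between units of a group 7.00 to 103. No label ties a unit to its animals, so p-values measure the spread between units, which may be partly technical.

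Genes were tested with edgeR 4.0.16 in R 4.3.3 (filterByExpr, TMM, robust quasi-likelihood, Benjamini-Hochberg over 15775 genes, FDR 0.05), a step tested on simulated data. SE were derived from the F statistic. CPM are scaled by TMM library sizes. Alternatives used DESeq2 1.42.0 and limma 3.58.1 and other scalings, filters, units and a replicate block. Shared words are 31 bases long.

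The members and lists were chosen with earlier results of these data known. Named were all 36 members, Tln1, and up to 4 genes of each other list with the smallest adjusted p; Pold1 was added after its value was seen. Markers are given as list sums, with defining markers at 0 named, and the values of 1 marker are not reported here on their own. Lists of regulators, other replication and other mitosis genes, and 8 marker lists, were described without a set test. Promoter sequences are RefSeq's (GRCm38.p6).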

Additional observations from a re-analysis of the deposited data

Results flagged for a closer look

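Among the 36 members, 6 had a WT unit that stood far from the other 3 WT units, by a gap over Dixon's critical share of the group's range. Chance gives about 1 in 20 for independent values with a normal spread. Many members shared their highest WT unit, and genes outside the 36 were not examined this way. The count of 6 therefore cannot be read as more than chance gives. WT unit 1 was far above the other WT units for 5 mitosis members, with 5.27 CPM of Aurka, 34.3 CPM of Cenpe, 28.0 CPM of Cenpf, 190.3 CPM of Mki67 and 120.5 CPM of Top2a. WT unit 4 was far below the other WT units for 1 replication member, with 33.3 CPM of Mcm5. Groups of 3 were not examined this way, so KO unit 3 could not be marked.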

How the results depend on the processing

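Of 756 member values over 21 alternatives, 721 kept their direction and side of the threshold, 29 kept their direction and passed FDR 0.05, 0 lost a call and 6 changed sign. Units 1 to 3 with no block and leaving out WT unit 4 are the same fit, counted under both names. The changes of sign were without KO unit 3 in Ccne1 (-0.30, highest with 1 unit left out 1.31), Ccne2 (-0.19, highest 0.98), Mcm4 (-0.0054, highest 0.68) and Mcm6 (-0.26, highest 0.67), and with a GC and length offset and a replicate block in Ccne1 (-0.17) and Mcm6 (-0.10). In all, 18 members passed in some alternative. Mitosis members called, 0 in the main setting, were 13 by the DESeq2 Wald test, 1 by upper-quartile scaling, 1 in the samples with second number 2, 3 on protein-coding transcripts (chosen after seeing the data) and 0 to 3 with 1 unit left out. Replication members called were 4 by DESeq2, 1 (Pcna) with the GC and length offset, with or without the block, and 0 with any unit left out. Leaving out each unit gave medians of 0.31 to 1.35 for replication, 0.65 to 2.18 for mitosis and 0.34 to 1.01 for their difference, the lowest always without KO unit 3. Genes called, 2144 in all, were 3546 by DESeq2 and 758 to 1905 with 1 unit left out. The GC and length offset moved the median of all genes to -0.27 and the calls to 737 higher and 2426 lower, from 1116 and 1028, with class medians of 0.78 and 1.49. Deviations of same-numbered units had correlations of 0.04, -0.08 and -0.12, against up to 0.19 between units of unlike number. So few units can neither show nor exclude a pairing by number. With the replicate block on units 1 to 3, 553 genes and 0 members were called. With no block on those units (chosen after seeing the data), 758 genes were called, the same fit as without WT unit 4. Where counts moved, the cause was not tested. Depth was lowest for the mitosis members, down to 24 reads of Bub1 in a unit.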
